A study of Arabidopsis thaliana with 38 samples.

Results

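BABY BOOM (BBM) and AGAMOUS-LIKE 42 (AGL42) are transcription factor genes of the root stem cell niche of Arabidopsis thaliana, and their RNA was followed here across sorted root cell layers and dissected root tips. The probe sets annotated to these genes by symbol and locus were taken, which gave 2 members of 22746 probe sets, 1 for BBM (AT5G17430) and 1 for AGL42 (AT5G62165). Both loci lie on chromosome 5. The root tip keeps its stem cells around a few slowly dividing cells, the quiescent centre, from which all cell layers of the root derive. BBM encodes an AP2-domain protein of the AINTEGUMENTA-LIKE/PLETHORA (AIL/PLT) family, whose members act together to keep the root meristem dividing, and which is also known for starting embryo formation when it is overproduced. AGL42 encodes a MADS-domain protein of the SOC1 group, which acts in flowering, and in the root it is used as a marker of the quiescent centre.

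The samples were 38 single-colour ATH1 arrays in 13 groups, all from roots of 5-day seedlings on standard medium. Cells sorted by J0571, an enhancer trap marker of the ground tissue (the cortex and endodermis), gave 10 groups of 3 arrays in the C24 ecotype: WT and SHR, each labelled by a two-cycle and by a one-cycle protocol, and, in the one-cycle set, 6 lines in which SHR also carried UAS-SCR, UAS-IME, UAS-JKD, UAS-MGP, UAS-NUC or UAS-BLJ. The Columbia ecotype gave dissected meristems of WT (2 arrays) and BLJ (3 arrays) and WT cells sorted by CO2, a marker of the cortex (3 arrays), all labelled by the one-cycle protocol. The labels name a meristematic zone for the meristems and the CO2 cells, name none for the J0571 cells, and do not state what kind of line SHR and BLJ are. The titles number the arrays as biological replicates and do not tie them to separate plants, so every p-value below reflects the spread of these arrays. Sorted cells were protoplasts, per the labels' protocols, and meristems were tissue. J0571 cells and meristems therefore differed in ecotype, sorting and tissue at once, and these cannot be told apart.

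Array quality and markers were checked before the members were read. The median signal of an array lay between 55.8 and 97.3 on all arrays other than the 3 of meristem BLJ, where it reached 177.5. The log2 ratio of the 3' to the 5' probe set of GAPDH, which rises as RNA is shorter or less fully copied, was 4.17 to 9.09 in meristem BLJ, 3.42 to 3.59 in meristem WT, 2.57 to 3.27 in CO2 cells and 1.93 to 3.10 in two-cycle SHR, and between -0.23 and 0.49 in one-cycle WT and SHR. In actin, read by 2 pairs of control probe sets, the ratios of one-cycle WT lay below those of SHR, at -0.75 to 0.33 against 0.92 to 0.98 in the r2 pair and 1.52 to 2.05 against 3.96 to 4.22 in the other. The summed signal of the 4 endodermis markers with a named probe set was 4580 to 6533 in one-cycle J0571 WT, 549.6 to 1033 in CO2 cells and 308.8 to 345.2 in meristem WT. The 5 cortex markers summed to 1195 to 1690, 1413 to 1850 and 143.7 to 151.4 in the same groups. RCPG, a polygalacturonase of the root cap, was at 1214 to 1311 in meristem WT, 21.4 to 59.6 in J0571 WT and 2.68 to 22.0 in CO2 cells. The sorted cells thus carried these sums above the meristem, and the meristem carried the root cap gene. Single markers did not all follow the sums. The endodermis marker EN7 was lower in CO2 cells than in meristem WT by a log2 difference of -0.87 ± 0.21 (limma adjusted p = 0.00373). In J0571 WT it was not called (0.38 ± 0.21, 0.149). The cortex gene CO2 itself did not follow its list: it was at 79.1 ± 73.7 (SD, n = 3) in CO2 cells and 107.7 ± 31.1 (n = 2) in meristem WT. The log2 difference was -0.71 ± 0.58 (limma adjusted p = 0.282). The other 4 cortex markers had little signal in the meristem. They entered the test mainly through sorted cells, where they are high, so their calls against the meristem are not used. Against J0571 WT, 3 of the 5 cortex markers were called lower in CO2 cells, as 35.8% of all probe sets were. The other 2 were called higher, as 23.1% of all probe sets were. The 2 epidermis and root hair markers summed to 37.9 to 103.5, 71.2 to 115.3 and 30.3 to 31.6 in J0571 WT, CO2 cells and meristem WT, and to 603.5 to 961.7 in the line labelled UAS-JKD, 339.2 to 804.3 in UAS-SCR and 92.0 to 140.2 in one-cycle SHR. No stele marker of the list had a named probe set. In the line labelled UAS-JKD the JKD probe set stood at 102.0 ± 15.4 (SD, n = 3), below the 215.1 ± 41.2 (n = 3) of SHR, so that line is named here by its label only.

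BBM had its highest signal in the WT meristem. The 2 WT meristem arrays read 354.8 and 298.1, in units of the authors' scaled intensity. All other 36 arrays lay below the lower of these, with the highest at 218.0. The group means ran from 326.5 ± 40.1 (SD, n = 2) in WT meristems over 155.5 ± 53.0 (n = 3) in one-cycle J0571 WT and 153.0 ± 46.8 in BLJ meristems to 37.6 ± 21.1 in CO2 cells. Between these ends lay UAS-MGP at 143.7, two-cycle WT at 127.3, UAS-NUC at 123.9, UAS-IME at 123.1, one-cycle SHR at 87.8, the line labelled UAS-JKD at 84.6, UAS-SCR at 60.2, UAS-BLJ at 49.9 and two-cycle SHR at 40.4. Of the 12 pairs of neighbours in this order, 11 overlapped in their arrays, and in 10 the gap was smaller than the larger SD. The WT meristem was the one group set apart from its neighbour. The share of all probe sets with such a separation was not counted, so this only describes the arrays. In whole tissue and in sorted pools alike, fewer cells that hold an RNA and less of it per cell cannot be told apart.

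AGL42 was ordered differently and spread less among the one-cycle groups. Its mean was highest in UAS-BLJ, at 124.2 ± 12.8 (n = 3), followed by UAS-MGP at 123.2, the WT meristem at 111.9 ± 16.6 (n = 2), one-cycle SHR at 100.5 ± 29.5, the line labelled UAS-JKD at 99.4, UAS-IME at 92.0, UAS-SCR at 91.1 and UAS-NUC at 78.4. BLJ meristems at 63.3 ± 14.8, CO2 cells at 62.0 ± 12.7 and one-cycle J0571 WT at 61.9 ± 11.2 came next with nearly the same mean. The two-cycle groups closed the order, with WT at 37.2 ± 21.4 and SHR at 7.72 ± 7.45. Again 11 of 12 neighbouring pairs overlapped, and the pair that did not was the two-cycle WT and SHR. This too only describes the arrays. Unlike BBM, AGL42 did not place the WT meristem arrays above the sorted cells: of the 24 one-cycle J0571 arrays, 13 lay below the 2 WT meristem values of 123.7 and 100.2, 6 between them and 5 above. Across the 13 group means the members correlated with Pearson r = 0.36 and Spearman rho = 0.17, and over the 8 one-cycle J0571 groups with r = -0.42 and rho = -0.45. Groups share ecotypes and labelling protocols, so these correlations are a description.

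**Figure D1:**
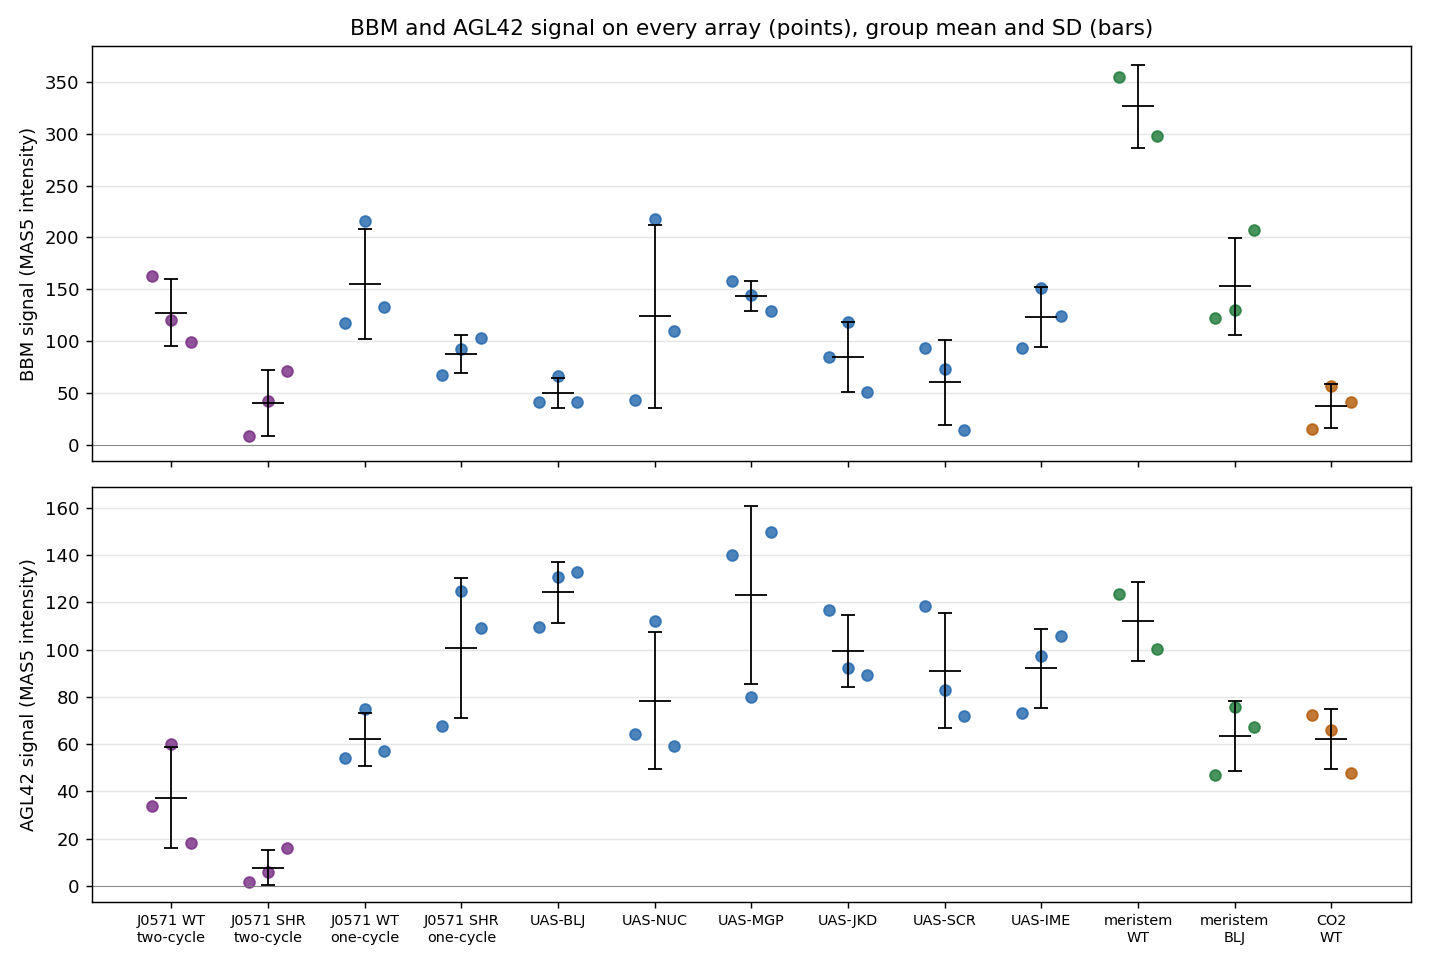
Signal (MAS5 intensity, linear axis) of BBM (top) and AGL42 (bottom) on each of 38 arrays, by group. Points are arrays and bars are the group mean ± SD; BBM stands highest in the WT meristem (354.8 and 298.1), and AGL42 lowest in the two-cycle SHR cells (1.42 to 15.9).

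The main question was how the members differ between sorted ground tissue and the meristem. In one-cycle J0571 WT the BBM arrays read 117.4, 216.0 and 133.1, all below the WT meristem. The difference was -1.04 ± 0.35 (SE) on the log2(signal + 16) scale, 2.05-fold lower, with a limma adjusted p of 0.0274 and a 95% interval from -1.82 to -0.25. AGL42 read 54.0, 74.8 and 57.0 there, again without overlap, and was lower by a log2 difference of -0.72 ± 0.23 (adjusted p = 0.0215, interval -1.23 to -0.20). In this comparison 58.5% of the probe sets tested were called at an adjusted p under 0.05, so a call is the common outcome and not a mark of these members. The share of all probe sets whose arrays did not overlap was not counted, here or below. Lack of overlap therefore only describes the arrays. The BBM call was lost without J0571 WT replicate 2_1 (adjusted p = 0.0877) or 2_3 (0.0787), and without meristem WT replicate 1 (0.152) or 2 (0.0784), with log2 differences of -1.27 to -0.88 throughout. The AGL42 call was lost without J0571 WT replicate 2_1 (0.0649) or 2_3 (0.0663), without meristem WT replicate 1 (0.153), and when replicate numbers were fitted as a block (0.0551).

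A wider comparison, added after the values were seen, set the mean of all 8 one-cycle J0571 groups (24 arrays) against the WT meristem. Of these groups, 7 (21 arrays) were of the SHR background. The line thus differed along with ecotype, sorting and tissue, and these cannot be told apart. BBM was lower by a log2 difference of -1.77 ± 0.37 (limma adjusted p = 0.00024) and AGL42 differed by -0.40 (adjusted p = 0.122), with 48.7% of probe sets called. RCPG was also lower in J0571 WT, at 21.4 to 59.6 against 1214 to 1311 in the meristem. It passed the filter on low signals through the meristem arrays, where it is high, so its tests are not used. The 3'/5' ratio of GAPDH was 0.15 to 0.49 in J0571 WT and 3.42 to 3.59 in the meristem, and both actin ratios were likewise higher in the meristem, at 4.03 to 4.23 in the r2 pair and 6.30 to 6.34 in the other. The part of these in the differences was not tested.

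CO2 cells were sorted from the same ecotype as the meristems, from which they still differed in sorting and tissue. From J0571 WT they differed in marker, in ecotype and in the zone that the labels name. Within each comparison these cannot be told apart. The 3 CO2 arrays read 15.0, 56.9 and 40.9 for BBM, all below both meristem groups and below the J0571 WT arrays. Against WT meristems the log2 difference was -2.76 ± 0.35, 6.76-fold lower, with a limma adjusted p of 4.68e-05 and an interval of -3.54 to -1.97. In that comparison 73.5% of probe sets were called and the median change of all was -0.28. Against J0571 WT, BBM was lower by a log2 difference of -1.72 ± 0.32, 3.30-fold (adjusted p = 0.00106, interval -2.42 to -1.02), with 58.9% of probe sets called and a median change of -0.25. Both BBM calls held in every alternative run.

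AGL42 was called lower in CO2 cells than in the meristem, as 41.8% of probe sets were, and was not called against the J0571 cells. The median change of all probe sets from the meristem was -0.28, so this call is no mark of AGL42. Its CO2 arrays read 72.2, 66.1 and 47.8, below both WT meristem arrays and across the range of J0571 WT. The log2 difference from WT meristems was -0.72 ± 0.23 (limma adjusted p = 0.0161), and this call was lost without meristem WT replicate 1 (0.122) or CO2 replicate 3 (0.0519). From J0571 WT the difference was 0.00 ± 0.21 (adjusted p = 0.994), with an interval of -0.46 to 0.46. RCPG was at 2.68 to 22.0 in CO2 cells, against 1214 to 1311 in meristems and 21.4 to 59.6 in J0571 WT, which overlapped the CO2 cells. Its tests are again not used, as it passed the filter through the meristem arrays. The GAPDH 3'/5' ratio of CO2 cells, 2.57 to 3.27, lay between those of J0571 WT and the meristem. So did its r2 actin ratio, at 2.79 to 3.48, while the other actin ratio, at 6.38 to 7.32, was above both. The part of these in the members' values was not tested.

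The other genes of the niche, the AIL/PLT family and the cell cycle were read from lists that included genes without a named probe set. Of 19 other niche genes, 3 had one: SPT, which encodes a bHLH protein that restrains meristem size, ACR4, a receptor kinase of formative divisions in the root tip, and CLE40, a peptide gene of the columella. SPT was called lower in J0571 WT than in WT meristems (29.6% of all probe sets were), lower in CO2 cells than in WT meristems (41.8%), and lower in CO2 cells than in J0571 WT (35.8%). SPT differed by -0.95 ± 0.29, -2.41 ± 0.29 and -1.45 ± 0.26 on the log2 scale in these comparisons (limma adjusted p = 0.0151, 2.68e-05 and 0.000797). ACR4 read 85.9 and 50.1 in WT meristems, 22.2 to 34.9 in J0571 WT and 0.97 to 1.19 in CO2 cells. It exceeded the cutoff of the filter on low signals on both meristem arrays, 1 of 3 J0571 arrays and 0 of 3 CO2 arrays, so it passed through the meristem, where it is high, and its tests are not used. CLE40 did not pass the filter. Its levels ran the other way from SPT and ACR4, at 0.87 to 2.06 in WT meristems, its lowest group. It was at 8.05 to 13.8 in J0571 WT and 6.06 to 19.8 in CO2 cells. All of these lay below the cutoff of the filter.

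AUR1, an Aurora kinase of dividing cells, was the one mitosis gene of 10 with a named probe set. It was at 903.5 and 908.6 in WT meristems, 255.4 to 347.4 in J0571 WT and 108.8 to 188.5 in CO2 cells, with no overlap between these groups. Its log2 differences from the WT meristem were -1.59 ± 0.23 in J0571 WT and -2.55 ± 0.23 in CO2 cells (limma adjusted p = 0.000244 and 4.26e-06). Of the AIL/PLT genes other than BBM, 1 of 7 had a named probe set: AIL1, which passed no filter and lay between 0.39 and 27.2 on all arrays but those of meristem BLJ, where it reached 184.5.

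AGL42 had less company among the MADS-box genes expressed in roots. Of 11 such genes 6 had a named probe set, and AGL71, AGL72 and AGL19, its relatives of the SOC1 group, were below the filter in every comparison. The remaining 3 did not move together. AGL16 was higher in J0571 WT than in WT meristems by 1.23 ± 0.23 and in CO2 cells by 2.07 ± 0.23 (limma adjusted p = 0.00119 and 1.79e-05). AGL18 was lower in J0571 WT by a log2 difference of -1.23 ± 0.23 and higher in CO2 cells by 0.86 ± 0.23 (0.000997 and 0.00531). AGL21, a gene of lateral root growth, differed by -0.17 ± 0.19 in J0571 WT (0.46) and was lower in CO2 cells by a log2 difference of -0.81 ± 0.19 (0.00279).

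**Figure D2:**
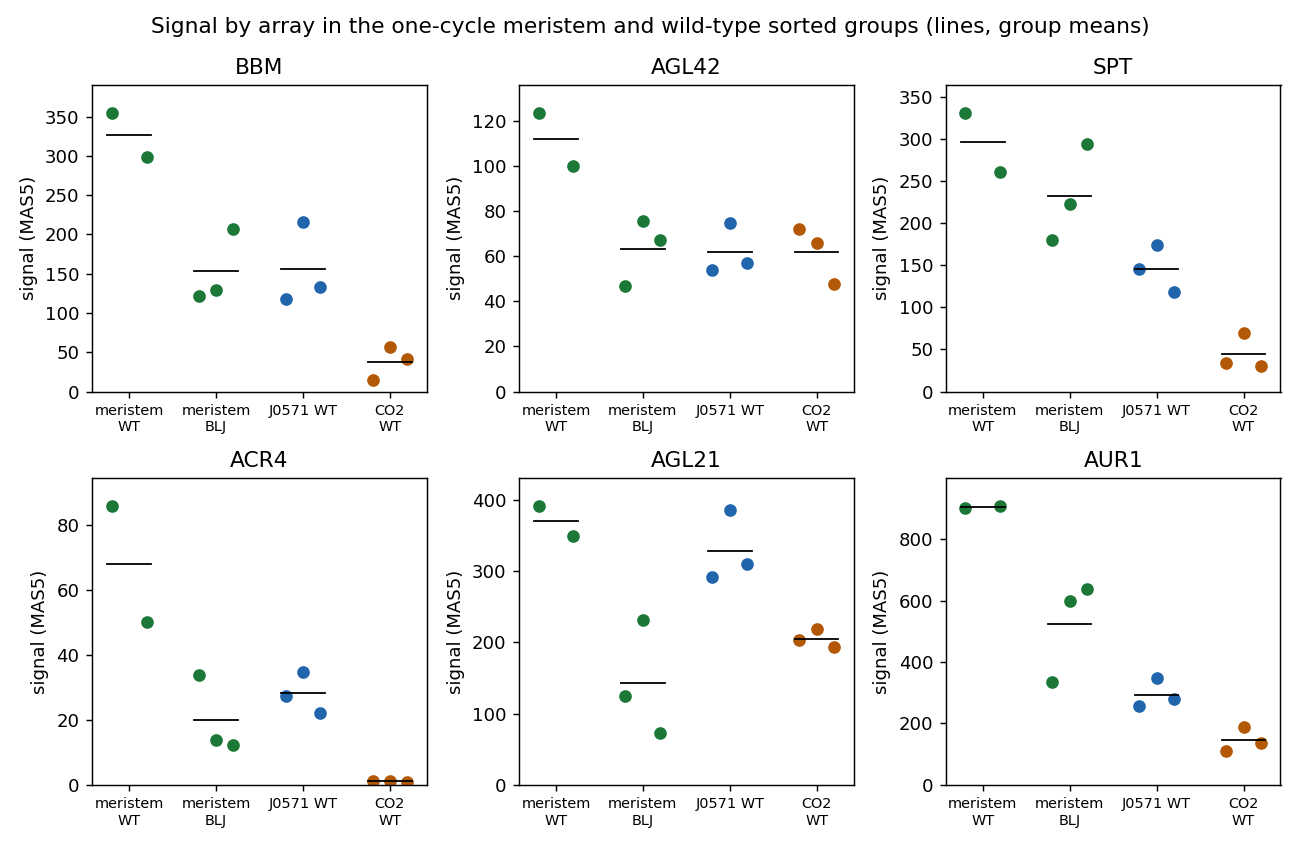
Signal (MAS5 intensity, linear axes from 0, scaled per gene) of BBM, AGL42, SPT, ACR4, AGL21 and AUR1 in WT and BLJ meristems, one-cycle J0571 WT and CO2 WT cells. Points are arrays and lines are group means; BBM falls in steps from the meristem (mean 326.5) to J0571 (155.5) to CO2 cells (37.6), whereas AGL42 has nearly the same mean in both sorted groups (61.9 and 62.0).

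The labels BLJ and WT were compared in dissected meristems. BBM read 122.2, 129.8 and 206.9 in BLJ meristems and AGL42 46.9, 75.9 and 67.1, in each case below both WT meristem arrays. After quantile normalization between arrays, which the spread of the array medians called for, the log2 differences were -1.39 ± 0.39 for BBM (limma adjusted p = 0.105, interval -2.31 to -0.47) and -1.42 ± 0.47 for AGL42 (0.143, interval -2.54 to -0.30). Neither passed the threshold in a comparison where 2.72% of the probe sets did. AGL42 passed the filter there through the 2 WT arrays, with 0 of 3 BLJ arrays above the cutoff, so its tests are not used as support. For BBM the difference was called with the replicate number as a block (-1.43, adjusted p = 0.0146) and without BLJ replicate 3 (-1.57, 0.0347). With BLJ replicate 1 as the only BLJ array, a setting added after the values were seen, the differences were -1.30 for BBM and -1.02 for AGL42. The lone BLJ array is assumed there to vary like the 2 WT arrays, so calls in this setting are not used. On the values as deposited the differences were -1.05 (0.102) and -0.70 (0.355), so for AGL42 the size depended on the normalization. The GAPDH 3'/5' ratio and the array medians were higher in the BLJ arrays. The actin ratio was higher there in the r2 pair (5.17 to 5.74 against 4.03 to 4.23) and lower in the other (at most 6.20 against 6.30 to 6.34). The cortex markers summed to 609.0 to 1222 in BLJ and 143.7 to 151.4 in WT meristems, RCPG was at 548.9 to 923.4 against 1214 to 1311, and AUR1 at 333.6 to 637.8 against 903.5 to 908.6. The part of these in the members' values was not tested. SPT was not called (-0.54 ± 0.36, adjusted p = 0.368).

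WT and SHR were compared within J0571 cells under each labelling protocol. In the one-cycle set BBM read 117.4, 216.0 and 133.1 in WT and 67.4, 92.7 and 103.3 in SHR, so the WT arrays were all higher. The difference of 0.70 ± 0.42 did not pass the threshold (limma adjusted p = 0.209, interval -0.18 to 1.58) in the fit of all 24 arrays, which called 34.5% of probe sets, and did in a fit of these 6 arrays alone (0.0289). AGL42 lay the other way, with SHR at 67.7, 124.9 and 109.0 against 54.0, 74.8 and 57.0 in WT and 1 SHR array inside the WT range. Its log2 difference was -0.56 ± 0.24 (adjusted p = 0.0807, interval -1.06 to -0.05), and among the alternatives it was called only without SHR replicate 2_1 (-0.78, 0.0260). The actin 3'/5' ratios of WT and SHR, given above, did not overlap, and their part in these values was not tested. Of the MADS-box genes, AGL16 was higher in WT (1.12 ± 0.14, adjusted p = 5.45e-06) and AGL18 lower (-0.72 ± 0.18, 0.00456).

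In the two-cycle set BBM read 162.5, 120.2 and 99.4 in WT and 8.2, 42.2 and 70.9 in SHR, without overlap. It was higher in WT by 1.51 ± 0.46, 2.84-fold (limma adjusted p = 0.0439, interval 0.44 to 2.57), with 28.8% of probe sets called. BBM passed the filter there through WT, where it is high, so the call is not used as support. Of its arrays, 3 of 3 in WT and 1 of 3 in SHR exceeded the cutoff. The call was a narrow one, lost without WT replicate 1 (0.138), 2 (0.0837) or 3 (0.0825) and without SHR replicate 2 (0.0867). AGL42 read 33.6, 60.2 and 17.9 in WT and 1.4, 5.8 and 15.9 in SHR, also without overlap. It did not pass the filter on low signals there and was not tested. The 3'/5' ratio of GAPDH was 1.93 to 3.10 in the SHR arrays of this set and -0.10 to 0.11 in the WT arrays, and its part in these differences was not tested.

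The difference between WT and SHR was itself compared between the 2 protocols. For AGL42 the difference was -0.56 under one-cycle labelling, not called, and the two-cycle values were too low for a test of their own. The fit of both sets gave a change of 1.69 ± 0.46 on the log2 scale (limma adjusted p = 0.0149, interval 0.69 to 2.69). In this comparison 36.6% of probe sets were called and the median change was 0.21. AGL42 passed the filter of this fit through the one-cycle arrays, all 6 of which exceeded its cutoff, against 1 of 6 two-cycle arrays, so the value rests on two-cycle signals near the floor and does not show in which direction AGL42 differed there. BBM did not pass the threshold, with 0.81 ± 0.56 (0.263), nor did AUR1, with 0.92 ± 0.47 (0.135). SPT was higher by 1.52 ± 0.50 (0.0320).

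**Figure D3:**
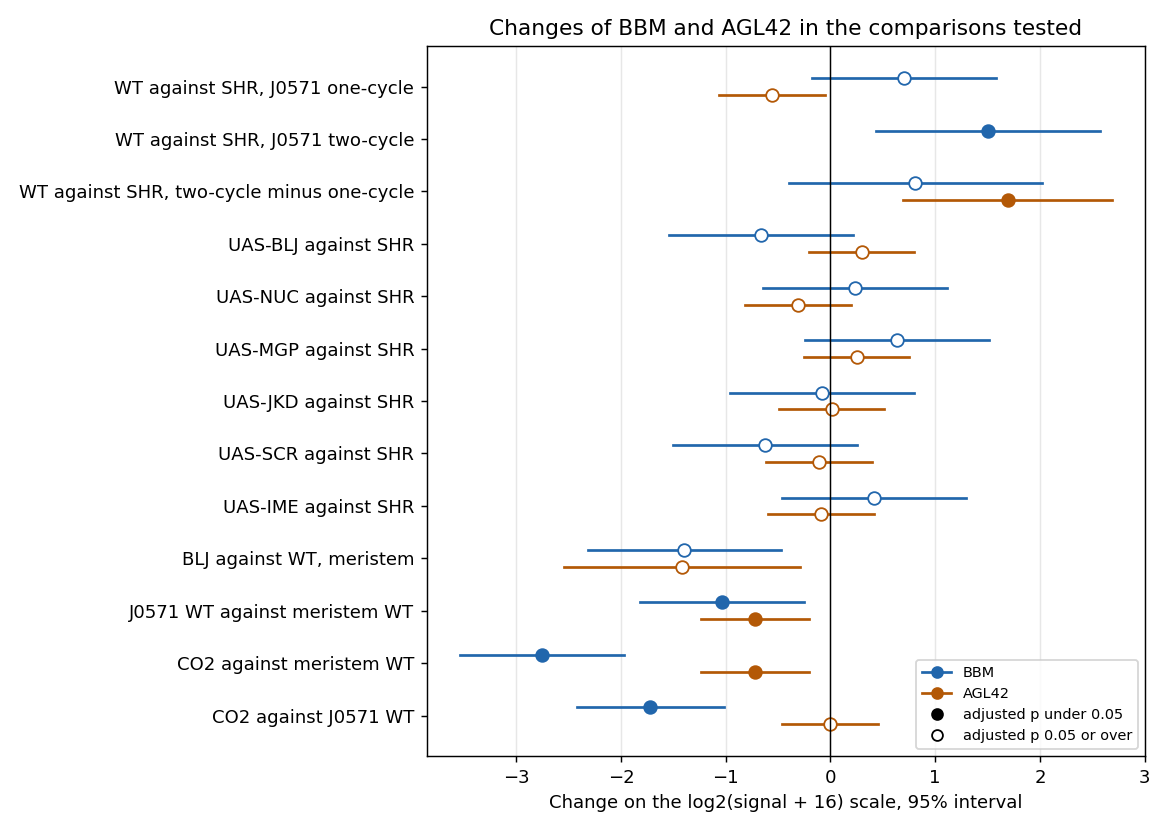
Change of BBM (blue) and AGL42 (orange) on the log2(signal + 16) scale in 13 comparisons, with 95% intervals; filled points passed an adjusted p of 0.05. BBM passed in the 3 comparisons of WT tissues and in the two-cycle set, where it entered the test through the WT arrays. AGL42 passed in both comparisons with the WT meristem and in the difference between protocols, which rests on two-cycle signals near the floor. AGL42 has no point in the two-cycle comparison, where it was below the filter.

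The UAS lines ask whether each driven factor moves these genes in SHR ground tissue. Neither member passed the threshold in any of the 6 lines. BBM read 41.4, 66.5 and 41.9 in UAS-BLJ, where all arrays lay below the SHR range of 67.4 to 103.3. The difference was -0.66 ± 0.42 (limma adjusted p = 0.381, interval -1.54 to 0.22), with 11.1% of probe sets called in this line. A fit of these 6 arrays alone called it (0.0277). UAS-MGP lay on the other side, with BBM at 157.7, 144.4 and 129.0, all above SHR, and a difference of 0.63 ± 0.42 (0.396, interval -0.24 to 1.51; 9.07% called). In both lines the arrays did not overlap those of SHR, but the intervals from the shared estimate of the spread included 0. How many of all probe sets separate in this way was not counted, so the lack of overlap is no support for a change.

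BBM was widely spread within UAS-NUC, at 43.5, 218.0 and 110.2, the second of these being the highest of all J0571 arrays. Its difference from SHR there was 0.23 ± 0.42 (limma adjusted p = 0.677; 40.7% called) and became -0.24 without UAS-NUC replicate 2. UAS-SCR read 93.3, 73.0 and 14.4 (-0.62 ± 0.42, 0.226; 47.7% called), with replicate 3 far below the others. UAS-IME read 93.8, 151.4 and 124.1 (0.42 ± 0.42, 0.505; 21.1% called). The line labelled UAS-JKD read 84.6, 118.1 and 51.2 (-0.09 ± 0.42, 0.880; 46.2% called). These 4 lines overlapped SHR, and their intervals, from -1.50 at the lowest to 1.30 at the highest, leave room for changes of more than a doubling either way in at least 1 line.

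AGL42 was steadier across the lines. It read 109.4, 130.5 and 132.7 in UAS-BLJ (0.30 ± 0.24, limma adjusted p = 0.518) and 139.8, 80.0 and 149.7 in UAS-MGP (0.25 ± 0.24, 0.589). UAS-NUC read 64.2, 111.9 and 59.2 (-0.31 ± 0.24, 0.307). The remaining lines differed from SHR by 0.01 (UAS-JKD by label), -0.11 (UAS-SCR) and -0.09 (UAS-IME), with adjusted p-values of 0.972, 0.720 and 0.825. Every line overlapped SHR in its arrays, and over the 6 lines the intervals ran from -0.82 to 0.80, so none reached 1 on the log2(signal + 16) scale.

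Differences among the groups as a whole were tested with a limma F test, added after the values were seen. Over the 8 one-cycle J0571 groups the adjusted p was 0.0305 for BBM and 0.0498 for AGL42, where 78.5% of probe sets passed. Over the 7 groups of the SHR background, which leave out WT, it was 0.0677 for BBM and 0.275 for AGL42, with 71.4% passing.

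SPT, by contrast, was called lower than in SHR in 4 of the 6 lines. Its log2 differences were -1.17 ± 0.29 in UAS-BLJ, -1.31 ± 0.29 in UAS-NUC, -1.35 ± 0.29 in the line labelled UAS-JKD and -1.09 ± 0.29 in UAS-IME (limma adjusted p = 0.00876, 0.0015, 0.000954 and 0.00892). The share of all probe sets called lower in these lines was 4.67%, 20.6%, 22.8% and 7.94%. AUR1 was called lower in 1 line, UAS-SCR (-1.03 ± 0.40, 0.0421; 22.6% of probe sets lower), and AGL21 in UAS-NUC (-1.01 ± 0.25, 0.00414). AGL16 was called higher in UAS-SCR (0.66 ± 0.14, 0.00131; 25.1% of probe sets higher) and the line labelled UAS-JKD (0.61 ± 0.14, 0.00236; 23.4%), the lines in which the epidermis and root hair markers also summed above SHR. All lines share the 3 SHR arrays as their control. The arrays of all lines but UAS-BLJ differed from SHR at their low end, with a 10th percentile of signal of 8.08 to 10.2 against 3.23 to 3.43, and in the GAPDH 3'/5' ratio, with 0.40 to 2.07 against -0.23 to 0.10. In UAS-BLJ these were 3.60 to 3.98 and -0.12 to 0.09. Their part in the values of the lines was not tested.

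Within groups, BBM and SPT tended to be high on the same arrays. Of the 12 groups of 3 arrays, 10 had their highest BBM and highest SPT signal on the same array, and 7 had all 3 arrays in the same order. Over all probe sets the median was 4 groups for the highest array and 2 for the order, and 0.919% of probe sets matched the highest BBM array at least as often as SPT did. AUR1 shared the highest array in 6 groups and AGL42 in 4, at which 28.9% and 61.3% of probe sets did at least as well. In UAS-NUC, the array with BBM at 218.0 had AUR1 at 401.5 and that with BBM at 43.5 had AUR1 at 79.4. In UAS-SCR, the array with BBM at 14.4 had AUR1 at 48.9, the lowest of that line. Other lines went the other way: in UAS-BLJ the highest BBM array, at 66.5, had the lowest AUR1, at 220.1. In the line labelled UAS-JKD the highest BBM array, at 118.1, had AUR1 at 139.6, below the 188.3 of another array. SPT was picked out of the list after its values were seen, and arrays of a group share their preparation, so this is a description.

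**Figure D4:**
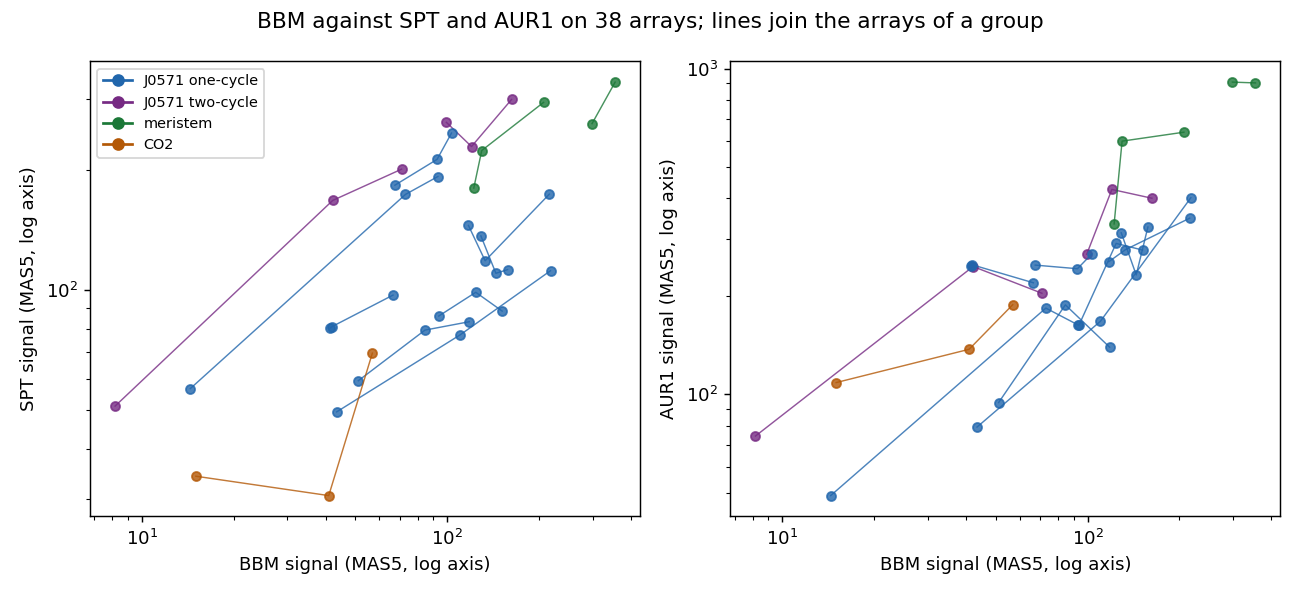
BBM signal against SPT (left) and AUR1 (right) on 38 arrays, all axes logarithmic MAS5 intensities, with lines joining the arrays of a group and colours for one-cycle J0571, two-cycle J0571, meristem and CO2. SPT and BBM are highest on the same array in 10 of the 12 groups of 3, AUR1 and BBM in 6.

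The genes whose profile over the 13 groups was most like that of each member were listed from 8496 candidates with exactly 1 annotated gene. For BBM these were AT3G44330, AT1G53070, AT1G01300, AT2G15690 and AT5G18920, with Pearson r of 0.96, 0.94, 0.94, 0.93 and 0.93 over the group means. All 5 were highest in the WT meristem, and all had their lowest mean signal in CO2 cells. Nearly the same mean was found in two-cycle SHR for AT5G18920 (15.6 in CO2 cells and 15.9) and AT2G15690 (165.2 and 165.5). On the log2(signal + 16) scale of the likeness, AT5G18920 was lowest in two-cycle SHR (4.82, against 4.95 in CO2 cells). AT1G53070 ran from 672.1 ± 27.7 (n = 2) in WT meristems over 302.2 ± 95.6 (n = 3) in J0571 WT to 48.1 ± 19.2 in CO2 cells. Over the 11 one-cycle groups 3 of the 5 stayed among the first 5, and 1 did by Spearman's rho. A profile with r above 0.8 was common for BBM, at 383 candidates.

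For AGL42 the list was AT1G14310, AT1G47830, AT3G28950, AT1G61150 and AT1G55160, with r of 0.94, 0.90, 0.89, 0.88 and 0.87. All 5 were lowest in two-cycle SHR, the group where AGL42 itself was lowest, and none stayed among the first 5 over the 11 one-cycle groups or by Spearman's rho. AT1G47830 had r = 0.40 over the one-cycle groups. Only 33 candidates had r above 0.8. The likeness lists rest on groups that share protocol and ecotype, so they describe these 13 groups.

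**Figure D5:**
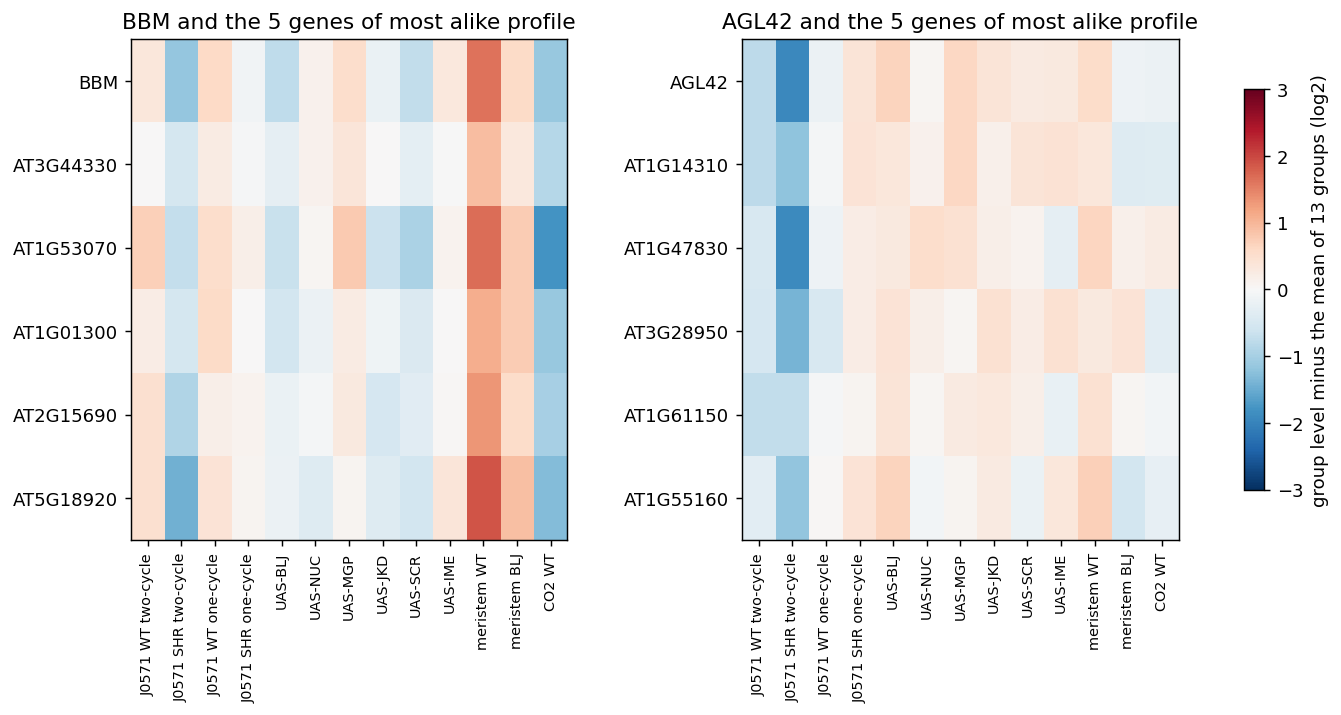
Group level of BBM (left) and AGL42 (right) and of the 5 genes with the most alike profile, as the mean log2(signal + 16) of a group minus the mean over 13 groups (colour, log2 units). The BBM set is highest in the WT meristem, and the AGL42 set lowest in two-cycle SHR.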

How the data were processed

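RNA from 5-day roots was read on 38 ATH1 arrays. Each deposited value is an intensity on a linear scale, single-colour, which the authors computed in MAS5 (per the submitters' processing notes, without a version). The authors' detection calls were not used. Of 22810 probe sets, 64 controls were left out. Genes were named from the probe annotation (13513 probe sets with 1 gene, 503 with several, none named from the latter).

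Changes were tested with limma 3.58.1 (lmFit, eBayes with a trend; R 4.3.3, with version 1.17.8 of the data.table package) on log2(intensity + 16), which understates changes of low signals, with Benjamini-Hochberg adjustment over all tested probe sets and a threshold of 0.05. Probe sets were kept above the 40th percentile of a fit's values in as many arrays as the smaller group holds. Values were used as deposited, or quantile normalized where array medians spanned over 0.5 log2 units, which was so in BLJ against WT meristems. The one-cycle J0571 comparisons shared a fit of 24 arrays. The scripts were tested on simulated data. The number of arrays limits the precision.

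Named genes were the members, listed genes (at most 4 called per list, or the 2 of largest change) and the 5 genes of most alike profile. Lists of root cap, mitosis, endodermis, cortex, stele and epidermis served as markers. The order of SPT and AUR1 within groups falls outside this rule. The members and lists were chosen with earlier results of these data known. Alternatives were other pseudocounts (1 and 64), no filter, another normalization, a replicate block, the compared arrays alone and leaving out each array.

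Same-numbered arrays deviated together (every pair's r over 0.1) in UAS-IME against SHR only (0.18 to 0.54), where the block changed no call of a member.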

Additional observations from a re-analysis of the deposited data

Results flagged for a closer look

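The AGL42 difference between WT and SHR gave an interaction with the labelling protocol of 1.69 on the log2(signal + 16) scale (SE 0.46, limma adjusted p = 0.0149), fitted over 12 arrays. One-cycle WT arrays lay at 54.0 to 74.8 and SHR arrays at 67.7 to 124.9, while two-cycle WT arrays lay at 17.9 to 60.2 and SHR arrays at 1.4 to 15.9. AGL42 passed the filter of this fit through the 6 one-cycle arrays, with 1 of 6 two-cycle arrays above the cutoff. Under one-cycle labelling alone it was not called (adjusted p = 0.0807), and under two-cycle labelling alone it was below the filter (0.0676 with no filter). The interaction was called in all 17 alternatives run, with values of 0.85 to 3.05 and limma adjusted p-values of 0.00772 to 0.0463. All of these rest on the same two-cycle signals near the floor, so their number adds no support. The 3'/5' GAPDH ratio of the two-cycle SHR arrays was above that of the other 9, and its part in this difference was not tested.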

How the results depend on the processing

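Of 305 alternatives over 25 tested results of the members, 266 kept direction and side of the threshold, 20 lost the call, 7 gained one and 12 turned a value that was not called; the cause was not tested. For BBM in two-cycle WT against SHR, the call was lost with a pseudocount of 1 (2.04), quantile normalization (1.33), no filter (1.51) and the replicate block (1.51, adjusted p = 0.0797), and the values without single arrays ran from 0.99 to 1.91. BBM in J0571 WT against meristem WT was -1.11 with a pseudocount of 1 (0.0798) and -1.27 to -0.88 without single arrays. AGL42 there was -0.63 with the replicate block, -0.40 over all 8 J0571 groups and -0.85 to -0.59 without single arrays. AGL42 in CO2 cells against meristem WT was -0.85 to -0.58 without single arrays, and against J0571 WT it was 0.27 with quantile normalization and -0.10 to 0.14 without single arrays. Calls were gained by fits of the compared arrays alone for BBM in one-cycle WT against SHR (0.70) and in UAS-BLJ (-0.66), and without an array for AGL42 in one-cycle WT against SHR (-0.78 to -0.40). In meristems, BBM was -1.43 with the block and -1.57 to -1.22 without single arrays; with only BLJ replicate 1, an alternative chosen after seeing the data in which the lone array is assumed to vary like the other group, BBM was -1.30 and AGL42 -1.02. Without single arrays, uncalled values crossed 0 for BBM in UAS-NUC (-0.24 to 0.74) and the UAS-JKD label (-0.32 to 0.18), and for AGL42 in the UAS-JKD label (-0.21 to 0.17), UAS-SCR (-0.33 to 0.042) and UAS-IME (-0.31 to 0.065). The block changed no other call of a member. Pairing by number held for no other comparison than UAS-IME against SHR. Counts of called probe sets moved by over 1.5 times in the two-cycle set (4122, from 2058 to 4313, and 2657 with the block), UAS-BLJ (1756, up to 3456), UAS-NUC (6423, down to 3494), UAS-MGP (1431, down to 790), UAS-SCR (7524, down to 4503), UAS-IME (3333, down to 1896) and meristems (423, from 0 to 6483, with 2849 under the block and 2140 as deposited). Signals near the floor limit AGL42 in the two-cycle arrays, where a fit with no filter gave 1.13 ± 0.36 (adjusted p = 0.0676).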
